A study of Mus musculus with 8 samples.

Results

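Focal adhesions are the sites where integrins on the cell surface are tied to the actin cytoskeleton, and the genes described here encode the proteins of that tie. The set holds 49 genes named by symbol: kinases, adaptors, proteins that join integrin tails to actin, actin crosslinkers, GTPases with an exchange factor and a kinase effector, and contractile proteins. Each gene was read from the transcript cluster annotated to it alone, or from the one with the highest mean where there were several. In this way 42 of the 49 were measured, among 23332 clusters in all. Ptk2, Nedd9, Tns3, Flna, Rock2, Dock1 and Myl9 were not analysed here.

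RNA was measured on Affymetrix Mouse Exon 1.0 ST arrays in MK546, a keratinocyte line from newborn mice without the integrin α3 subunit, and in 3 lines derived from it. The α3 line carried human α3 by stable transfection, the α9 line human α9 by retroviral transduction, and the α3α9 line both. The parent is called the null line here. Every line, the null line included, carries SV40 large T antigen and lacks mouse α3, and all grew at 33 °C and 8% CO2 on denatured collagen. Their medium held 4% serum stripped of calcium, 0.05 mM CaCl2, EGF at 10 ng per ml, interferon-γ at 10 units per ml, hydrocortisone and insulin. Each combination of subunits is 1 line with 2 arrays, so a difference between subunits and another difference between these lines cannot be told apart. The labels call both arrays of a line biological replicates but name no separate cultures, and the variation behind the p-values is that among these arrays, possibly technical. The word re-analysis stands in the titles of the 4 null and α3 arrays and of no others. In both comparisons that add α9, the subunit and the set of arrays therefore cannot be told apart.

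Integrins have no enzymatic activity of their own. Talins and kindlins bind the tail of the β subunit and switch the receptor to its active form, and vinculin, tensins, α-actinins and the complex of ILK, PINCH and parvin carry the link on to actin. FAK and Src family kinases phosphorylate paxillin and p130Cas, which recruit Crk and, through exchange factors, Rac and Cdc42. In keratinocytes α3β1 and α9β1 are receptors for laminin-332 and for matricellular and fibronectin ligands, respectively, and kindlin-1 is the kindlin typical of epithelia.

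Values below are array intensities after quantile normalization, which gives all arrays 1 distribution, since the deposited medians ranged from 82.8 to 127, both of these in the α3α9 line. Changes are log2 differences of intensity + 16 with their standard error, and p-values come from limma, adjusted over all 23332 clusters by Benjamini-Hochberg, with a threshold of 0.05. A gene is said to rise or fall only where it passed. The added 16 understates the changes of dim genes, and intensities of different genes cannot be ranked as levels. Of 8 markers of basal keratinocytes, Krt5 ranged from 13189 to 14773 and Krt14 from 10697 to 12031 over the arrays, and Krt15 from 55.4 to 123. Trp63, the master regulator of basal keratinocytes, fell in all 4 comparisons between lines, by log2 changes of -0.58 ± 0.10 and -0.69 ± 0.10 with α3 and -0.48 ± 0.10 and -0.59 ± 0.10 with α9. Each of these calls was lost on the deposited values and without single arrays (adjusted p up to 0.135, 0.0599, 0.127 and 0.064). Itga6 fell with α3 in both backgrounds (-0.42 ± 0.09, adjusted p = 0.0373 and -0.41 ± 0.09, adjusted p = 0.0349), Col17a1 in the absence of α9 (-0.70 ± 0.14, adjusted p = 0.0363), and Krt15 was higher in the α3α9 line than in the α3 line (0.76 ± 0.15, adjusted p = 0.016). These 4 calls too were lost on the deposited values and without single arrays (adjusted p up to 0.177, 0.129, 0.175 and 0.0823). The part of these markers in the results was not tested. Of 7 fibroblast, 5 melanocyte, 6 endothelial and 4 leukocyte markers measured, 2 passed in any comparison, Dcn and Cd68, both higher in the α9 line than in the null line. Dcn gave at most 27.8. The summed leukocyte list lay at 563 and 713 on the null arrays, 671 and 758 on the α3 arrays, 1052 and 1092 on the α9 arrays and 798 and 759.6 on the α3α9 arrays, and its part in the results was not tested. The highest value of any of its 4 markers was 918, so 1 gene can make up most of the sum. In the α9 line against the null line the median change of the 4 was 0.10, in a range of -0.03 to 0.91. Mouse Itga3 and Itga9 probes do not test for the human subunits, so the labels are taken as given. In bulk RNA, fewer cells with a transcript and less of it per cell cannot be told apart.

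With α3, in the absence of α9, between 0 and 3 genes of each role group passed. Fermt2 (kindlin-2), Tns1 (tensin-1) and Arhgef7 (β-Pix, an exchange factor for Rac and Cdc42) rose. Vcl (vinculin), Lims1 (PINCH-1), Fyn, Rock1 and Cnn2 (calponin-2) fell. That is 3 higher and 5 lower of 42, or 19.0%, where 8.21% of all clusters were called, 4.46% higher and 3.75% lower. Among clusters with a mean intensity of at least 100 the share called was 13.7%, and 7 of the 36 members that bright were called, 19.4%. The members' median change was -0.07, beside -0.04 for all clusters.

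When α9 was present, α3 again went with higher Fermt2, Tns1 and Arhgef7 and lower Fyn. Fermt1 (kindlin-1) also rose there, and Src and Tns4 (the short tensin cten, which lacks the actin-binding part of other tensins) fell. These 4 rises and 3 falls make 16.7% of 42 members, where 9.96% of all clusters (5.67% higher, 4.29% lower) and 16.4% of the brighter ones were called, so the members' share is near that of the brighter clusters. The median change of the members was -0.01, and -0.01 for all clusters. The pair of α3 comparisons share no array, although both use 1 estimate of spread. The 4 members called in both had the same direction, 50.0% of the calls without α9 and 57.1% of those with it. Over all clusters 799 were called in both in the same direction, 41.7% and 34.4%, and 44 in opposite directions.

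The calls depended on the scale and on single arrays. On the deposited values 1 of 42 members passed without α9, Fermt2, which was among the 8 calls, where 1.3% of all clusters were called. With α9 present 4 of 42 passed, Fyn, Tns1, Tns4 and Arhgef7, all among the 7 calls, where 1.87% were called. No call changed sign under any of the 15 alternatives run. When 1 null or α3 array was left out, 2 members passed in the first comparison, Fermt2 and Arhgef7, and without any 1 of the other 4 arrays 5 did. There Fyn, Tns1 and Cnn2 were lost without each null and α3 array (adjusted p up to 0.122, 0.128 and 0.137), and Lims1, Vcl and Rock1 without any 1 of the 8 arrays (up to 0.192, 0.193 and 0.205). In the second comparison 5 or 6 members passed without any 1 array. Src was lost without either α9 array or α3α9 replicate 1 (adjusted p up to 0.0793), and Fermt2 without α9 replicate 1 or α3α9 replicate 2 (up to 0.0561). Fermt1 was lost without each array except α9 replicate 1 (up to 0.155).

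**Figure D1:**
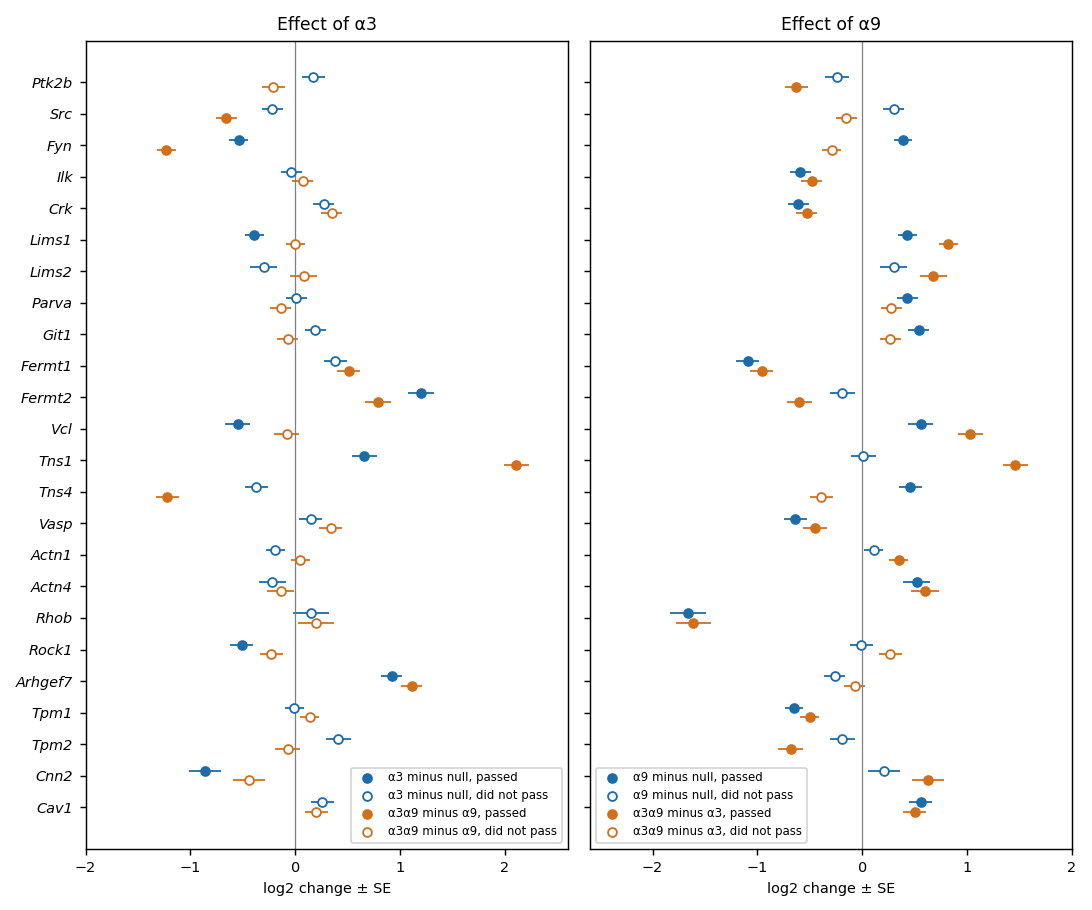
Log2 change ± SE (x axis) of the 24 members that passed in at least 1 comparison (y axis), for adding α3 (left) and α9 (right), without the other subunit (blue) and with it (orange); filled points passed at an adjusted p under 0.05. Fermt2, Tns1 and Arhgef7 lie right of 0 and Fyn left of 0 in both α3 comparisons, and Rhob and Fermt1 lie near or below -1 in both α9 comparisons.

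With α9, more members differed, as did more clusters overall. Against the null line, Fyn, Lims1, Parva, Git1, Vcl, Tns4, Actn4 and Cav1 were higher in the α9 line, and Ilk, Crk, Fermt1, Vasp, Rhob and Tpm1 were lower. That is 8 and 6 of 42 members, 33.3%, where 17.1% of all clusters were called (8.84% higher, 8.3% lower), and 14 of the 36 brighter members, 38.9%, where 28.7% of the brighter clusters were. Between the α3α9 and α3 lines, Lims1, Lims2, Vcl, Tns1, Actn1, Actn4, Cnn2 and Cav1 were higher and Ptk2b, Ilk, Crk, Fermt1, Fermt2, Vasp, Rhob, Tpm1 and Tpm2 were lower. These 8 and 9 make 40.5% of 42, where 18.8% of all clusters were called (10.1% higher, 8.75% lower), and 16 of 36 brighter members, 44.4%, where 31.3% were. The medians of the members were 0.00 and 0.01, those of all clusters 0.00 and 0.04.

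The 2 comparisons that add α9 share no array. In both of them Lims1, Vcl, Actn4 and Cav1 were higher and Ilk, Crk, Fermt1, Vasp, Rhob and Tpm1 lower, 10 members or 71.4% of the first and 58.8% of the second set of calls. Over all clusters 2119 were called in both in the same direction, 53.0% and 48.3%. Both cross the re-analysed and unmarked arrays. On the deposited values 1 of 42 members passed in the first, Rhob, which was among the 14 calls, where 4.32% of all clusters were called. In the second 3 of 42 passed, Vcl, Tns1 and Rhob, all among the 17 calls, where 3.28% were. On that scale the members' share in the first was not above that of all clusters. Scaling the arrays to a common median left 8 of 42 members in the first comparison, 2 higher and 6 lower. There 3111 of the 23332 clusters were called. Without single arrays fewer clusters were called too in each run named next, so those member counts alone show no excess over all clusters. Leaving out null replicate 1 or 2 or α9 replicate 1 or 2 left 3, 4, 6 and 3 members in the first comparison, and leaving out either α3 array 10. In the second, 5 and 6 were left without α3 replicates 1 and 2, 7 without α3α9 replicate 1 and 13 without α3α9 replicate 2. Rhob and Fermt1 passed in both comparisons without any 1 array, as did Lims1, Vcl and Tns1 in the second.

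Whether the α3 effect differed with α9 was tested by the interaction. Tns1 was the 1 member that passed, 2.38% of 42, where 0.737% of all clusters were called and 1.16% of the brighter ones. In that limma test 8 of the 42 members had an unadjusted p under 0.05, as did 3668 of the 23332 clusters. The α3 effect on Tns1 was larger by 1.45 ± 0.16 (adjusted p = 0.0227) with α9 present. This call was lost on the deposited values (adjusted p = 0.227) and without each array except α3α9 replicate 2 (up to 0.12). Tns4 and Fyn came next, with -0.85 ± 0.16 (adjusted p = 0.0816) and -0.68 ± 0.13 (adjusted p = 0.0833). For 41 of the 42 members no difference in the effect of α3 was called at this number of arrays.

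**Figure D2:**
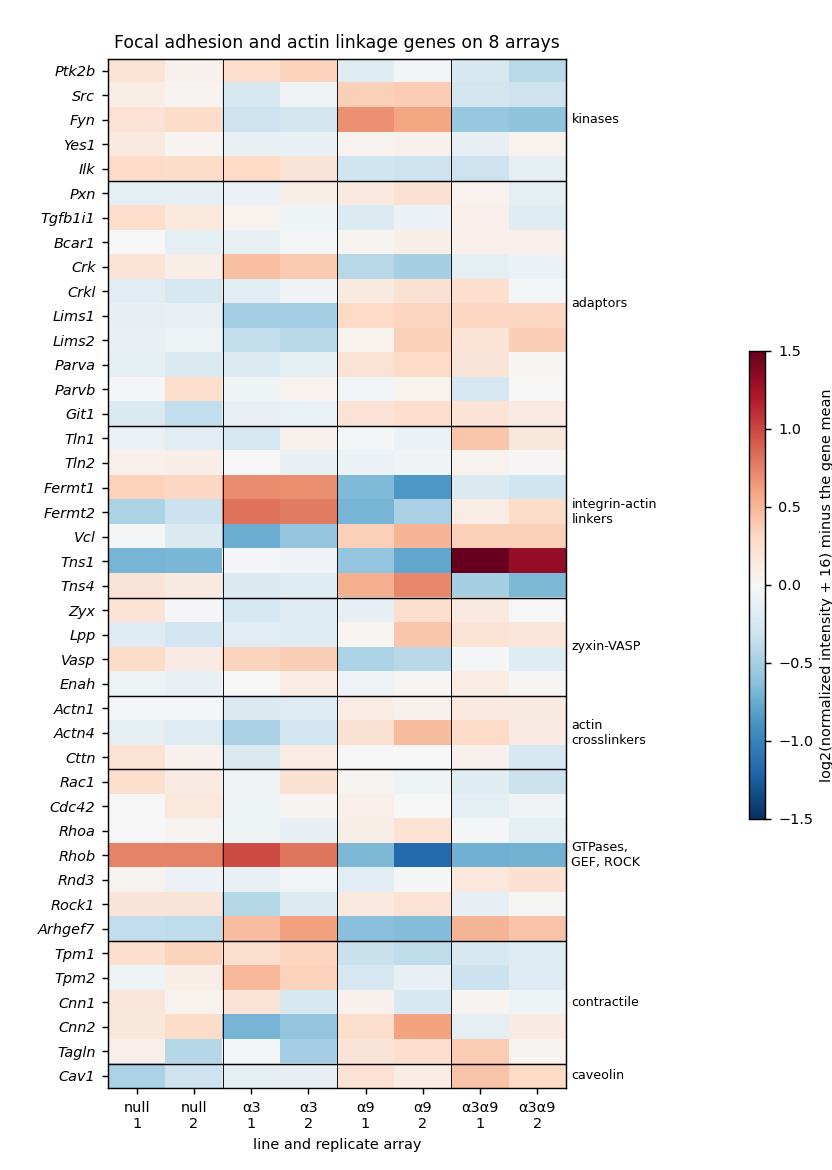
Each of the 42 measured genes (rows, grouped by role) on each of the 8 arrays (columns, by line and replicate); colour gives log2(normalized intensity + 16) minus that gene's mean over the arrays, and saturates at 1.5. Tns1 stands out on both α3α9 arrays, Arhgef7 on the 4 arrays of lines with α3, and Rhob is low on the 4 arrays of lines with α9.

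Among the kinases, Fyn showed the widest spread between lines. It is a Src family kinase of keratinocytes that acts downstream of integrins. Fyn gave 367 and 381 on the null arrays, 248 and 254 on the α3 arrays, 512 and 479.6 on the α9 arrays and 205 and 200.1 on the α3α9 arrays. The arrays of no 2 lines overlapped, with both α3-carrying lines lowest and the α9 line highest. With α3 it fell by 0.54 ± 0.09 (adjusted p = 0.0199) without α9 and by 1.23 ± 0.09 (adjusted p = 0.00095) with it, and it rose by 0.39 ± 0.09 (adjusted p = 0.0318) when α9 was added to the null line. The last call was lost without either null array, either α3 array or either α9 array (adjusted p up to 0.157).

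Src, the founding kinase of that family, gave 1196 and 1144 on the null arrays, 939 and 1072 on the α3 arrays, 1429 and 1452 on the α9 arrays and 913 and 893 on the α3α9 arrays. It was highest in the α9 line and lowest in the α3α9 line, a change of -0.66 ± 0.10 (adjusted p = 0.0121). The α3 line lay between 939 and 1072, below the null line, but that difference did not pass (-0.22 ± 0.10). Yes1, the third ubiquitous member of the family, ranged from 862 to 1049 over the 8 arrays and passed in no comparison. Ptk2b, the FAK relative Pyk2, gave 536 and 483 on the null arrays, 559.9 and 591 on the α3 arrays, 407 and 448 on the α9 arrays and 389 and 347 on the α3α9 arrays. Both α9-carrying lines lay below both other lines, and the α3α9 line passed against the α3 line (-0.63 ± 0.11, adjusted p = 0.0128). That call was lost without either α3 array (adjusted p up to 0.067).

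Ilk encodes the pseudokinase that forms a complex with PINCH (Lims1, Lims2) and parvin (Parva, Parvb) at the tail of β1. It gave 2471 and 2454 on the null arrays, 2480.1 and 2312 on the α3 arrays, 1641 and 1621 on the α9 arrays and 1620.2 and 1822 on the α3α9 arrays. The 4 arrays with α9 lay below the 4 without, with changes of -0.59 ± 0.10 (adjusted p = 0.0121) against the null line and -0.48 ± 0.10 (adjusted p = 0.0225) against the α3 line. The first call was lost without either null array or α9 replicate 2 (adjusted p up to 0.0761) and the second without either α3 array or α3α9 replicate 1 (adjusted p up to 0.117). Its partner PINCH-1 went the other way. Lims1 gave 2293 and 2317 on the null arrays, 1758 and 1753 on the α3 arrays, 3076 and 3129.9 on the α9 arrays and 3114 and 3107 on the α3α9 arrays, with the α3 line below the null line and both α9-carrying lines, which overlapped each other, above it. Its rise with α9 was 0.43 ± 0.09 (adjusted p = 0.0199) in the null background and 0.82 ± 0.09 (adjusted p = 0.00273) in the α3 background, and its fall with α3 was -0.39 ± 0.09 (adjusted p = 0.0434). With α9 present its α3 change was 0.00 ± 0.09 (adjusted p = 0.99). The rise against the null line was lost without either null array or either α9 array (adjusted p up to 0.111), and the fall with α3 without any 1 of the 8 arrays (adjusted p up to 0.192).

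Lims2, or PINCH-2, gave 196 and 200.4 on the null arrays, 161 and 156 on the α3 arrays, 221 and 277 on the α9 arrays and 247 and 280.4 on the α3α9 arrays. It passed between the α3α9 and α3 lines (0.68 ± 0.13, adjusted p = 0.0155), a call lost without either α3 array or α3α9 replicate 2 (adjusted p up to 0.0762). Parva, or α-parvin, gave 2337 and 2222 on the null arrays, 2248 and 2348 on the α3 arrays, 3016 and 3154 on the α9 arrays and 2965 and 2624 on the α3α9 arrays. It passed in the α9 line against the null line (0.43 ± 0.10, adjusted p = 0.034), while against the α3 line the α3α9 line gave 0.28 ± 0.10 (adjusted p = 0.113). Its call was lost without either null array, either α3 array or either α9 array (adjusted p up to 0.156). Parvb ranged from 31.8 to 52.4 and passed nowhere.

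Of the other adaptors, Crk links phosphorylated p130Cas and paxillin to the Rac exchange factor DOCK1. It gave 2709.8 and 2513 on the null arrays, 3225 and 3086 on the α3 arrays, 1759.6 and 1654 on the α9 arrays and 2145 and 2205 on the α3α9 arrays. Its arrays were highest in the α3 line and lowest in the α9 line, and it was lower with α9 in both comparisons (-0.61 ± 0.10, adjusted p = 0.0091 and -0.53 ± 0.10, adjusted p = 0.013). The first call was lost without null replicate 1 or α9 replicate 2 (adjusted p up to 0.0692) and the second without either α3 array or α3α9 replicate 1 (adjusted p up to 0.078). Its relative Crkl ranged from 1105 to 1554 and did not pass. Git1, a scaffold that binds paxillin and the β-Pix protein encoded by Arhgef7, gave 880.4 and 793 on the null arrays, 953 and 959.8 on the α3 arrays, 1201 and 1235 on the α9 arrays and 1193 and 1119 on the α3α9 arrays. It was higher in the α9 line than in the null line by 0.54 ± 0.10 (adjusted p = 0.0151), a call lost without either null array or either α9 array (adjusted p up to 0.0948). Pxn (paxillin), Bcar1 (p130Cas) and Tgfb1i1 (the paxillin relative Hic-5) passed in no comparison, with ranges of 2199 to 2840.2, 956 to 1122 and 43.4 to 66.5.

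Among the proteins that join integrins to actin were the largest rises with α3, Fermt2 without α9 and Tns1 with it. Tns1 binds both β integrin tails and actin. It gave 44.2 and 44.7 on the null arrays, 80.3 and 78.6 on the α3 arrays, 49.1 and 40.9 on the α9 arrays and 265 and 228 on the α3α9 arrays. The null and α9 lines overlapped, the α3 line lay above both and the α3α9 line above the α3 line. It rose by 0.66 ± 0.12 (adjusted p = 0.0231) with α3 alone, by 2.11 ± 0.12 (adjusted p = 0.00035) with α3 when α9 was present and by 1.46 ± 0.12 (adjusted p = 0.00138) with α9 when α3 was present, and its change with α9 alone was 0.01 ± 0.12 (adjusted p = 0.97). Tns4 gave 2317 and 2209 on the null arrays, 1731 and 1769 on the α3 arrays, 2930.5 and 3331 on the α9 arrays and 1419.7 and 1254 on the α3α9 arrays, the α9 line highest and the α3α9 line lowest. It fell by 1.22 ± 0.11 (adjusted p = 0.00221) with α3 when α9 was present and was higher by 0.46 ± 0.11 (adjusted p = 0.0365) in the α9 line than in the null line. The latter call was lost without either null array, either α3 array or either α9 array (adjusted p up to 0.173).

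**Figure D3:**
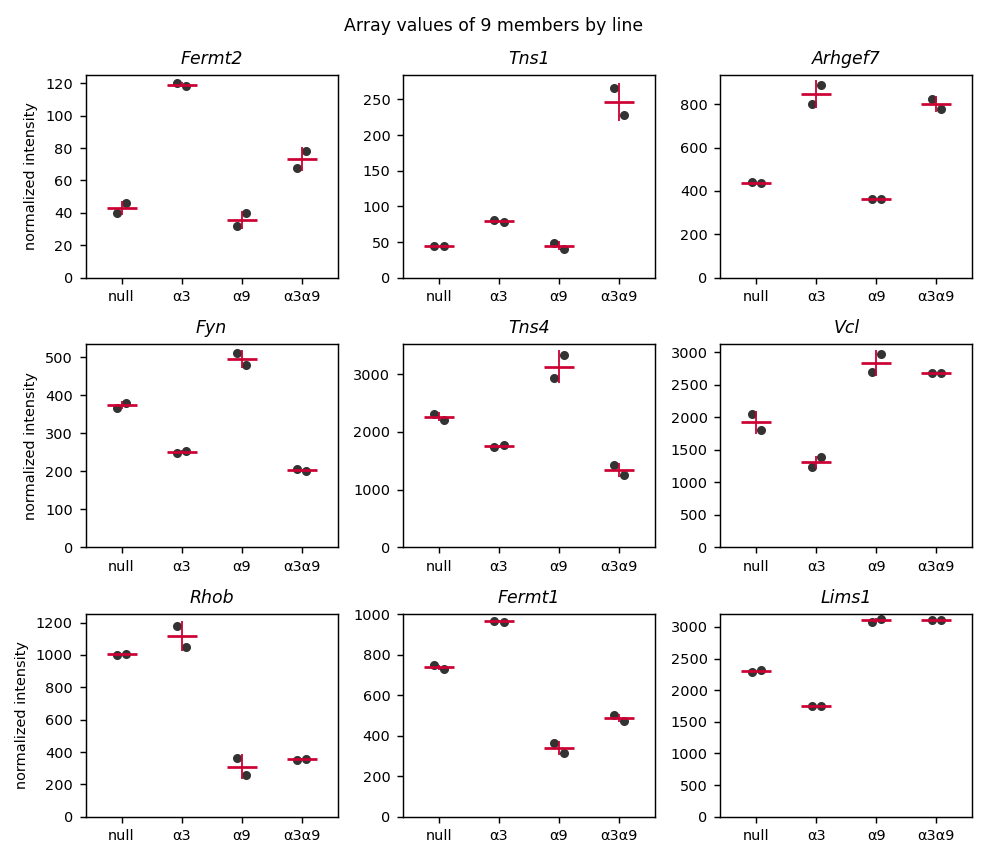
Normalized intensity (y axis, from 0) of 9 members in the 4 lines (x axis); black points are single arrays, red bars the mean ± SD of 2 arrays. Fermt2, Tns1 and Arhgef7 are higher and Fyn lower in the lines with α3 than in their partners without it, while Rhob and Fermt1 are lower in the lines with α9.

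Fermt1 and Fermt2 each changed with α3 and with α9 in at least 1 background, while Fermt3, the kindlin of blood cells and no member here, ranged from 56.3 to 82.5 and did not pass. Fermt2, the kindlin of most tissues, gave 40.1 and 46.0 on the null arrays, 120.3 and 118 on the α3 arrays, 31.9 and 39.6 on the α9 arrays and 67.9 and 78.4 on the α3α9 arrays. The lines with α3 lay above those without, with no overlap, and the change was 1.20 ± 0.12 (adjusted p = 0.00335) without α9 and 0.79 ± 0.12 (adjusted p = 0.0122) with it. Against the α3 line the α3α9 line was lower by 0.60 ± 0.12 (adjusted p = 0.0185). That call was lost without either α3 array or α3α9 replicate 1 (adjusted p up to 0.0951). The signal of Fermt2 was dim in the null and α9 lines, at means of 43.1 ± 4.14 and 35.7 ± 5.48 (SD, n = 2). Fermt1, whose loss in humans causes the skin fragility of Kindler syndrome, gave 748 and 729.6 on the null arrays, 968 and 962 on the α3 arrays, 364 and 315 on the α9 arrays and 502 and 473 on the α3α9 arrays. The 4 lines did not overlap. It was lower with α9 in both comparisons (-1.09 ± 0.11, adjusted p = 0.00267 and -0.96 ± 0.11, adjusted p = 0.00298), and higher with α3 where α9 was present (0.51 ± 0.11, adjusted p = 0.0315), with 0.38 ± 0.11 (adjusted p = 0.0798) where it was not.

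Vcl encodes vinculin, which binds talin under tension. It gave 2049 and 1801 on the null arrays, 1243 and 1383 on the α3 arrays, 2696 and 2979.6 on the α9 arrays and 2687 and 2681 on the α3α9 arrays. The α3 line lay below the null line (-0.55 ± 0.12, adjusted p = 0.0384) and the 4 arrays with α9 above all others (0.56 ± 0.12, adjusted p = 0.0215 and 1.03 ± 0.12, adjusted p = 0.00323). With α9 present, α3 made a difference of -0.08 ± 0.12 (adjusted p = 0.765). The fall with α3 was lost without any 1 of the 8 arrays (adjusted p up to 0.193), and the rise against the null line without either null array or either α9 array (adjusted p up to 0.119). Tln1 and Tln2, the talins, passed in no comparison and ranged from 787 to 1265 and from 77.7 to 92.1.

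Promoter sequences were looked at because Vcl and genes of the calponin and SM22 group are known targets of serum response factor, which binds the CArG box. Both strands were searched, and the pattern reads the same on both. Windows of 250 bases before the start were taken from RefSeq on GRCm38.p6 for 37 of the 49 genes. The box stood in those of 5 genes, Cnn2, Fermt2, Myl9, Rnd3 and Vcl, that is in 10.6% of 47 windows and 1.47% of 32851 windows of all genes. Its letters describe the sequence and not binding. Since known targets were part of the list from the start, the difference between these shares is no test. Of the 5 genes, Myl9 was not analysed and Rnd3 passed in no comparison. The windows of Fermt2 (chr14:45530066-45530315 on the minus strand), Vcl (chr14:20929148-20929397 on the plus strand), Cnn2 (chr10:79988350-79988599 on the plus strand) and Tns1 (chr1:74124549-74124798 on the minus strand) follow 5′ to 3′ in the direction of the gene, with the box in capitals. The first 3 hold a box and changed with α3 in different directions, and Tns1, which rose with Fermt2, holds none in this window. The part of the box, and of the factor that binds it, in these changes was not tested.
Fermt2: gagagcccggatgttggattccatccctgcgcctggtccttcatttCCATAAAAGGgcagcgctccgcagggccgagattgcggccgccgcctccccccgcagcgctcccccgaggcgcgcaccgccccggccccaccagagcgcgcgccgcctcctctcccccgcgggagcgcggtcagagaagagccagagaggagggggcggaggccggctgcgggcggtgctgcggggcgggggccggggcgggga
Vcl: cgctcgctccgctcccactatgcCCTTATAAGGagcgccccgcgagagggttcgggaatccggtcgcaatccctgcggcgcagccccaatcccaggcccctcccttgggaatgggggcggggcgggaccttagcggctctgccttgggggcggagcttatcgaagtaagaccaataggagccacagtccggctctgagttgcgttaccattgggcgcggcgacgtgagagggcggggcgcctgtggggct
Cnn2: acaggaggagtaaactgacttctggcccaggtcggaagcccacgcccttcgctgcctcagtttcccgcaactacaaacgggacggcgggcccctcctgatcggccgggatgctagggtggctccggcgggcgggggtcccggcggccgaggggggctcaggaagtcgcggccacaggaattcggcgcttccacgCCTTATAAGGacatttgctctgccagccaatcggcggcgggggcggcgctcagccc
Tns1: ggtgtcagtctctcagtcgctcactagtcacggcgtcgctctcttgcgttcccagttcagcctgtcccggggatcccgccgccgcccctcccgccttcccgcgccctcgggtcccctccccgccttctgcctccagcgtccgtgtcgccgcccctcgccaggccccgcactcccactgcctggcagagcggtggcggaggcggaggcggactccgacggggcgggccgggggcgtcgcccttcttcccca
The boxes of Vcl and Cnn2 are the same 10 letters, CCTTATAAGG, and begin 227 and 56 bases before the start. That of Fermt2 is CCATAAAAGG, 204 bases before the start, and Rnd3 has the same letters at 100 bases. With α3 in the absence of α9, Vcl and Cnn2 fell and Fermt2 rose, while Rnd3, whose protein opposes ROCK, gave -0.06 ± 0.11 (adjusted p = 0.766). Srf itself gave 352 and 355 on the null arrays, 248 and 275 on the α3 arrays, 482 and 672 on the α9 arrays and 489 and 438 on the α3α9 arrays. It was higher with α9 in both comparisons (0.67 ± 0.16, adjusted p = 0.0383 and 0.79 ± 0.16, adjusted p = 0.0209), calls lost without either null array, either α3 array, α9 replicate 2 or α3α9 replicate 1 (adjusted p up to 0.149) and without either α3 array or α3α9 replicate 1 (adjusted p up to 0.11), and the α3 comparisons gave -0.41 ± 0.16 and -0.29 ± 0.16, neither of which passed.

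Of the zyxin and VASP group, which promotes actin assembly at adhesions, Vasp changed and Zyx, Lpp and Enah did not pass. Vasp gave 1091 and 976 on the null arrays, 1131 and 1165 on the α3 arrays, 644 and 666 on the α9 arrays and 883 and 792 on the α3α9 arrays. The 4 arrays with α9 lay below the other 4, with changes of -0.64 ± 0.11 (adjusted p = 0.0107) against the null line and -0.45 ± 0.11 (adjusted p = 0.0308) against the α3 line. The first of these calls was lost without null replicate 1 or either α9 array (adjusted p up to 0.0754) and the second without any 1 of the 8 arrays (adjusted p up to 0.12). Zyx gave 1801 and 1538 on the null arrays, 1305 and 1360.3 on the α3 arrays, 1432 and 1879.6 on the α9 arrays and 1731 and 1555 on the α3α9 arrays, and the α9 arrays enclosed those of the null and α3α9 lines. Lpp and Enah ranged from 579 to 959 and from 782 to 914.

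The α-actinins crosslink actin filaments and bind integrin tails. Actn4 gave 4116 and 3972 on the null arrays, 3247 and 3724 on the α3 arrays, 5343 and 6339.6 on the α9 arrays and 5585 and 4982 on the α3α9 arrays. Both α9-carrying lines lay above the others (0.52 ± 0.13, adjusted p = 0.0393 and 0.60 ± 0.13, adjusted p = 0.0239). Actn1 gave 2617 and 2600.2 on the null arrays, 2273 and 2305 on the α3 arrays, 2857 and 2777 on the α9 arrays and 2943 and 2905 on the α3α9 arrays, and passed between the α3α9 and α3 lines (0.35 ± 0.09, adjusted p = 0.035). Cttn, encoding cortactin, ranged from 1786 to 2459 and did not pass. The call of Actn1 was lost without any 1 of the 8 arrays (adjusted p up to 0.141). Those of Actn4 were lost without either null array, either α3 array or either α9 array (adjusted p up to 0.179) in the first comparison and without either α3 array or α3α9 replicate 1 (adjusted p up to 0.128) in the second.

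Cdc42, Rac1 and Rhoa encode GTPases that shape the actin cytoskeleton. Cdc42 gave 9345 and 10363 on the null arrays, 8846 and 9566 on the α3 arrays, 9767 and 9223 on the α9 arrays and 8430.0 and 8948 on the α3α9 arrays, and the α3α9 arrays overlapped those of the α3 line and lay below the rest. Rac1 ranged from 4175 to 6169.8 and Rhoa from 3662 to 4705, and none of these 3 passed in any comparison. Rhob, an endosomal GTPase whose transcript is short-lived and induced by growth factors and stress, gave 1001 and 1005 on the null arrays, 1179.6 and 1049 on the α3 arrays, 366 and 255 on the α9 arrays and 353 and 356 on the α3α9 arrays. The lines with α9 lay below those without, with no overlap, a change of -1.66 ± 0.17 (adjusted p = 0.00292) against the null line and -1.61 ± 0.17 (adjusted p = 0.0027) against the α3 line. Its α3 changes were 0.15 ± 0.17 and 0.20 ± 0.17. These GTPase genes, like the tropomyosins, share sequence, and probes may read more than 1 of them.

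Rock1, the kinase through which RhoA raises contractility, gave 1133 and 1137 on the null arrays, 731 and 859.5 on the α3 arrays, 1097 and 1152 on the α9 arrays and 913 and 1007 on the α3α9 arrays. It fell with α3 in the absence of α9 (-0.51 ± 0.11, adjusted p = 0.0458), and the α3α9 and α9 lines differed by -0.23 ± 0.11 (adjusted p = 0.306). Arhgef7 gave 440.1 and 436 on the null arrays, 799 and 890.4 on the α3 arrays, 364 and 361 on the α9 arrays and 826 and 776 on the α3α9 arrays. The 4 arrays with α3 stood far above the 4 without, and the change was 0.92 ± 0.10 (adjusted p = 0.00428) without α9 and 1.11 ± 0.10 (adjusted p = 0.00191) with it. With α9 the changes were -0.26 ± 0.10 and -0.07 ± 0.10, and neither passed.

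Genes before Arhgef7 on chromosome 8 rose with it. In gene order, of the 20 genes before it with a mean intensity of at least 100, 16 rose with α3 without α9 and 17 with α9, with median changes of 0.90 and 1.06, and none fell. Of the 20 after it 4 and 5 rose, with medians of -0.15 and -0.03. The genes just before it, nearest first, were Ankrd10 (1.18 and 1.07), Ing1 (0.75 and 0.98), Naxd (1.30 and 1.54), Rab20 (0.84 and 1.25) and the collagen genes Col4a2 (0.50 and 1.07) and Col4a1 (0.83 and 1.53). Of these changes, that of Col4a2 without α9 did not pass. The median of all such genes was -0.04 and 0.00 in these comparisons, and 13.7% and 16.4% of all clusters this bright were called in either direction.

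Fyn, Lims1 and Cnn2 lie on chromosome 10, where many neighbours of each also had negative α3 changes in the absence of α9. Of 40 genes around Fyn 14 fell and none rose with α3, with a median of -0.35, and of 40 around Lims1 15 fell and 1 rose, with a median of -0.34. Of 40 around Cnn2 4 fell, none rose and 5 had a positive change, with a median of -0.25. Among all clusters with a mean intensity of at least 100, 13.7% were called without α9 and 16.4% with it. The share called around Cnn2 did not exceed this. The windows of Fyn and Lims1 share Bend3, Mtres1 and Qrsl1. With α9 present 7 fell and 2 rose around Fyn, and 10 fell and 1 rose around Lims1. The medians there were -0.13 and -0.27, against changes of -1.23 ± 0.09 for Fyn and 0.00 ± 0.09 for Lims1. Around Fermt1, which rose with α3 when α9 was present, 9 of 40 rose and none fell, with a median of 0.29. The 40 neighbours of Fermt2 had medians of -0.03 and -0.06 in the α3 comparisons, and those of Tns1 -0.16 and 0.02. For Rhob 33 neighbours had medians of 0.10 and 0.18 in the α9 comparisons. The part of position in these changes was not tested.

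**Figure D4:**
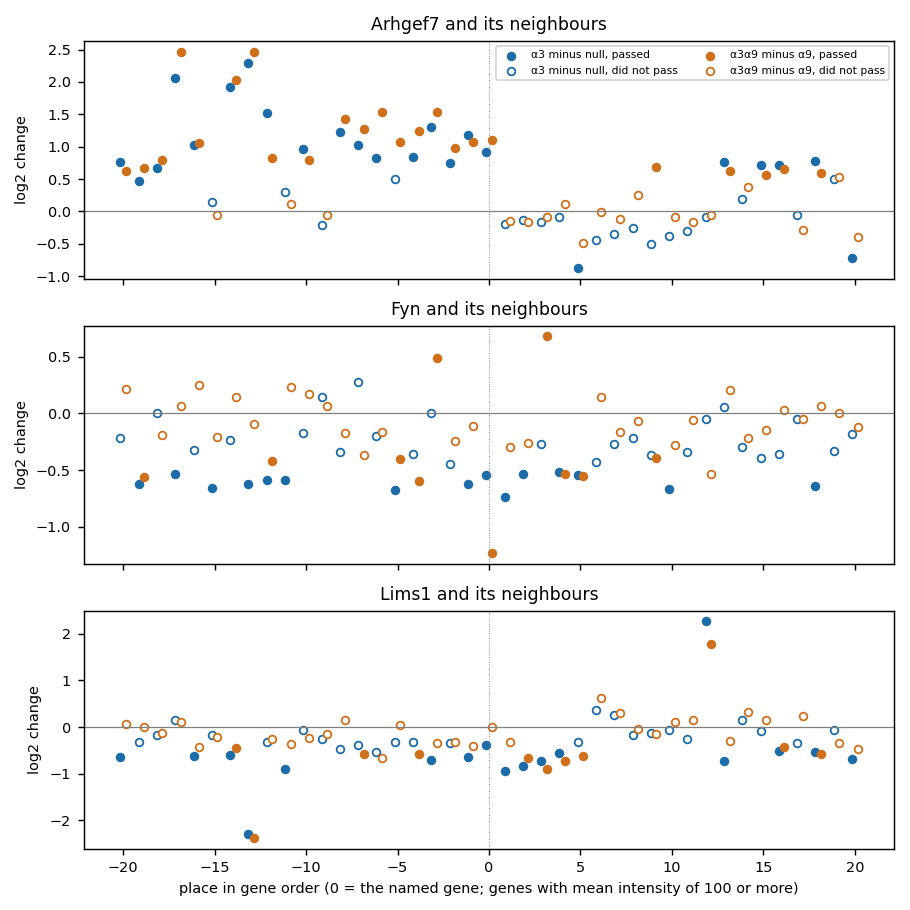
Log2 change (y axis) of Arhgef7, Fyn and Lims1, at place 0, and of the genes with a mean intensity of at least 100 around each in gene order (x axis), without α9 (blue) and with α9 (orange); filled points passed. Of the 20 genes before Arhgef7, 16 and 17 rose with α3, against 4 and 5 of the 20 after it.

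The contractile genes did not move as 1 group. Tpm1, a tropomyosin that coats actin filaments, gave 6745 and 7126 on the null arrays, 6699 and 7115 on the α3 arrays, 4496 and 4342 on the α9 arrays and 4787 and 4963 on the α3α9 arrays. The 4 arrays with α9 lay below the 4 without (-0.65 ± 0.09, adjusted p = 0.00698 and -0.50 ± 0.09, adjusted p = 0.0147). The first call was lost without null replicate 2 (adjusted p up to 0.0544) and the second without either α3 array or α3α9 replicate 1 (adjusted p up to 0.0762). Tpm2 gave 432 and 492 on the null arrays, 651 and 588 on the α3 arrays, 381 and 424 on the α9 arrays and 363 and 399 on the α3α9 arrays, highest in the α3 line, and was lower in the α3α9 line by 0.68 ± 0.12 (adjusted p = 0.0122), a call lost without α3 replicate 1 or α3α9 replicate 1 (adjusted p up to 0.0774). Cnn2, an actin-binding calponin of non-muscle cells, gave 3304 and 3564 on the null arrays, 1812 and 1954 on the α3 arrays, 3535 and 4492 on the α9 arrays and 2660.2 and 3224 on the α3α9 arrays. Its α3 line lay below all others and it fell by 0.86 ± 0.15 (adjusted p = 0.0241) with α3, while the α3α9 line was higher than the α3 line (0.63 ± 0.15, adjusted p = 0.0334). The second call was lost without either null array, either α3 array or either α3α9 array (adjusted p up to 0.155).

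The smooth muscle forms were dim. Cnn1 ranged from 24.1 to 38.7 and Tagln (SM22α) from 42.8 to 92.7, with overlap between some of the lines, and neither passed in any comparison. The Tagln arrays of the α9 line, at 79.2 and 83.5, lay above those of the null and α3 lines. Those of the α3α9 line lay above the α3 arrays, and for Cnn1 the null arrays lay above the α3α9 arrays. Of 7 smooth muscle markers measured, 2 passed in any comparison, Acta2 and Smtn, and none was at 0. Acta2 gave 75.3 and 81.6 on the null arrays, 47.3 and 41.4 on the α3 arrays, 67.2 and 82.8 on the α9 arrays and 64.4 and 80.0 on the α3α9 arrays, lower with α3 in the absence of α9 (-0.65 ± 0.14, adjusted p = 0.0399) and higher in the α3α9 line than in the α3 line (0.54 ± 0.14, adjusted p = 0.0387). These calls were lost without either null array, either α3 array or either α9 array (adjusted p up to 0.179) and without either null array, either α3 array or either α3α9 array (adjusted p up to 0.16). Smtn (smoothelin) gave 970.1 and 919 on the null arrays, 998 and 977 on the α3 arrays, 864 and 873 on the α9 arrays and 761 and 689 on the α3α9 arrays, lower in the α3α9 line than in the α3 line (-0.44 ± 0.10, adjusted p = 0.0245), a call lost without either null array, either α3 array or α3α9 replicate 2 (adjusted p up to 0.113). It made up most of the list's sum. The summed list lay at 1417 and 1378 on the null arrays, 1371 and 1354 on the α3 arrays, 1270.4 and 1354 on the α9 arrays and 1179 and 1133 on the α3α9 arrays, and its part in the change of Cnn2 was not tested.

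Cav1, the coat protein of caveolae and a partner of integrins and Src kinases, gave 4247 and 4738 on the null arrays, 5329.6 and 5408 on the α3 arrays, 6834 and 6392 on the α9 arrays and 7966 and 7252 on the α3α9 arrays. The 4 arrays with α9 lay above the other 4 (0.56 ± 0.11, adjusted p = 0.0168 and 0.50 ± 0.11, adjusted p = 0.0223). The first call was lost without either null array or either α9 array (adjusted p up to 0.108) and the second without either α3 array or α3α9 replicate 1 (adjusted p up to 0.105). Its α3 changes were 0.26 ± 0.11 and 0.20 ± 0.11. Cav2, its neighbour and partner in the caveolar coat, rose on adding α3 to the null line (0.66 ± 0.12, adjusted p = 0.0241), and gave 0.33 ± 0.12 (adjusted p = 0.149) when α9 was present. The call was lost on the deposited values, after scaling to a common median and without either null array or either α3 array (adjusted p up to 0.126). Its α9 changes were -0.10 ± 0.12 and -0.43 ± 0.12, and neither passed.

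A further 36 adhesion adaptors and linkers were listed beside the members, of which 31 were measured. Of these, 4 rose and 3 fell with α3 without α9, 22.6%, and 4 rose and 2 fell with it, 19.4%, where 8.21% and 9.96% of all clusters and 13.7% and 16.4% of the brighter ones were called. Trip6, a zyxin-family LIM protein, fell in both (-0.86 ± 0.12, adjusted p = 0.0122 and -1.43 ± 0.12, adjusted p = 0.00176), and Svil, the actin-binding supervillin, rose in both (0.56 ± 0.09, adjusted p = 0.0182 and 0.59 ± 0.09, adjusted p = 0.0123). Without α9 the call of Trip6 was lost on the deposited values and without null replicate 1 or either α3 array (adjusted p up to 0.0773), and that of Svil on the deposited values, after scaling to a common median and without either null array or either α3 array (adjusted p up to 0.115). With α9 present that of Svil was lost on the deposited values and without α9 replicate 2 or α3α9 replicate 2 (adjusted p up to 0.0815). Sorbs2, a vinculin-binding adaptor, rose with α3 where α9 was present (1.85 ± 0.23, adjusted p = 0.00579). There the α9 line was the low one, with means of 449 (null), 549 (α3), 106 (α9) and 439 (α3α9). The α3α9 arrays of Sorbs2 gave 331 and 548. Against the null line it fell in the α9 line (-1.92 ± 0.23, adjusted p = 0.00419). With α9, 5 rose and 6 fell in the null background, 35.5%, and 8 and 4 in the α3 background, 38.7%, where 17.1% and 18.8% of all clusters and 28.7% and 31.3% of the brighter ones were called. Kank2, which links talin to cortical microtubule sites, rose in both (1.66 ± 0.09, adjusted p = 0.00068 and 1.25 ± 0.09, adjusted p = 0.00109).

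In all, 24 members passed in at least 1 of the 4 comparisons between lines and 18 in none. That is 57.1% of the members, where 31.5% of all clusters passed in at least 1, and 23 of the 36 brighter members, 63.9%, where 50.7% of the brighter clusters did. Of the 24, 8 passed in 1 comparison, 10 in 2 and 6 in 3, and no member passed in all 4. How all clusters split in this way was not counted. The 4 comparisons share lines, so 1 differing line can give more than 1 of these calls. Of these 46 calls, 9 also passed on the deposited values and under each of the other 14 alternatives. They were those of Fermt2 with α3 in the absence of α9, Fyn, Tns1, Tns4 and Arhgef7 with α3 in the presence of α9, Rhob in both α9 comparisons, and Vcl and Tns1 with α9 in the presence of α3.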

How the data were processed

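RNA of 4 keratinocyte lines was measured on 8 arrays, 2 per line, grouped by title. What was deposited is 1 linear intensity for each cluster on each array. The authors made them with Affymetrix Expression Console and PLIER, per the submitters' processing notes, and the design text adds the Exon Array Computational Tool. The sources used here give neither versions nor a genome build. The deposited intensities were not on 1 scale, so they were quantile normalized, and log2(intensity + 16) was fitted by limma 3.58.1 (lmFit, then eBayes; R 4.3.3), with a mean per line over all 8 arrays and 4 residual degrees of freedom. Quantile normalization is a choice, and calls on the deposited scale are given beside it. Arrays give no read depth, and their number limits the precision. Genes came from the platform annotation, updated through the RefSeq table of GRCm38.p6, which also gave gene order. Of 23332 clusters 14996 had 1 gene, 1019 several and 7317 none named here.

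Members and lists were chosen with earlier results of these data known. Array values are given for members that passed in any comparison and for the brightest of each role. Another list of related genes is not reported here. For the other adaptors, genes named are among the 3 largest changes each way that passed. Neighbours, Srf and the promoter of Cnn2 were picked with their values in view. Simulated data with known α3 changes, the same with and without α9, were used to test the fit. They held no α9 or interaction change and gave all lines the same spread, so they do not cover these. Alternatives were the deposited values, scaling to a common median, leaving out the lowest 25% of clusters, an intensity trend, the replicate number as a block, pseudocounts of 1 and 64, and leaving out each array. Plots used matplotlib 3.10.9 (Python 3.11.15).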

Additional observations from a re-analysis of the deposited data

Results flagged for a closer look

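The α3 effect on Tns1 differed between the lines with and without α9. The difference between the effects was 1.45 ± 0.16 on the log2 scale in limma's interaction test (adjusted p = 0.0227), with mean intensities of 44.5 ± 0.301 (null), 79.4 ± 1.14 (α3), 45.0 ± 5.82 (α9) and 247 ± 26.7 (α3α9; SD, n = 2). Over the alternatives the difference ran from 1.11 with a pseudocount of 64 to 1.61 with a pseudocount of 1, and on the deposited values its adjusted p was 0.227. It passed in 5 of 15 alternatives.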

How the results depend on the processing

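No call on a member changed sign under any alternative, and most counts depended on the scale. The 4 comparisons are named in order as α3 against null, α3α9 against α9, α9 against null and α3α9 against α3, and the interaction follows. On the deposited values 1, 4, 1, 3 and 0 members passed where 8, 7, 14, 17 and 1 had, and 303, 436, 1009, 765 and 20 clusters where 1915, 2325, 3999, 4389 and 172 had. There the split of higher and lower clusters was 221 and 82, 244 and 192, 817 and 192, 499 and 266, and 3 and 17, where it had been 1041 and 874, 1323 and 1002, 2062 and 1937, 2347 and 2042, and 72 and 100. Scaled to a common median, 8 members passed in α9 against null, 2 higher and 6 lower where it had been 8 and 6. The split of members became 3 and 3 in α3 against null, from 3 and 5. In α3α9 against α3 it became 8 and 5, from 8 and 9. The cluster splits that moved most were 1267 and 599 in α3α9 against α9 and 2868 and 1331 in α3α9 against α3. A pseudocount of 1 left 5 members in the first comparison, and 0 members and 83 clusters in the interaction. A pseudocount of 64 gave 2990 clusters in the first, and 3 members and 586 clusters in the interaction. Leaving out the lowest 25% of clusters gave 3 members and 414 clusters in the interaction, and an intensity trend 3 and 494. In the main limma fit of the interaction, where 1 member passed, 8 members and 3668 clusters had an unadjusted p under 0.05. These counts are of the main fit and not of the settings with 0 members.

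After quantile normalization, the deviations of same-numbered arrays from their line means had correlations of -0.188 to 0.0478 between lines. These give no sign of pairing by number. They cannot show that same-numbered arrays were handled apart, since normalization removes shifts of whole arrays. With the replicate number as a block, 5 members and 1084 clusters passed in the first comparison, 1530 clusters in the second, and 0 members and 55 clusters in the interaction.

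Without 1 array, 2 to 5, 5 to 6, 3 to 14, 5 to 15 and 0 to 1 members passed, and 381 to 1705, 687 to 1569, 1278 to 4119, 1369 to 3910 and 8 to 116 clusters. A line left with 1 array is assumed to vary like the others. The causes were not tested. Dim genes such as Fermt2 and Tns1 lie near the floor in some lines, where folds are understated.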
